A study of Homo sapiens with 6 samples.

Results

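The HOX genes of HepG2 cells were followed in RNA sequenced 3 h after TGFβ. The members were chosen by their gene names: all 40 rows of the deposited table, out of 57773, that carry the name of a HOXA, HOXB, HOXC or HOXD gene. They stand for 39 genes, since HOXC4 has 2 rows. This family was picked with the rise of HOXC12 in the same comparison already known, so HOXC12 is given as a description with no test, and the counts of changed HOX genes support nothing beyond themselves. HepG2 is an established line from a human liver tumor. In the study, 3 cultures received recombinant human TGFβ1 at 5 ng/mL and 3 received the vehicle, both in medium without serum and both for 3 h. RNA was read by paired-end sequencing and counted per gene by the authors. Between 60815385 and 88415362 reads per vehicle culture and between 73263662 and 100099136 per TGFβ culture were counted on genes, of which 2234 to 3325 and 3401 to 6094 lay on HOX genes. As a check of the treatment labels, the widely known TGFβ targets SMAD7, SKIL and PMEPA1 had log2 fold changes of 1.72, 2.45 and 4.30. The 8 hepatocyte markers followed, ALB among them, had a summed level between 34080 and 37909 CPM (counts scaled to a common library size) in vehicle cultures and between 32661 and 36611 with TGFβ, and 0 of 8 passed the test in either direction (with the replicate number as a block 2 were lower, TTR and FGB).

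HOX genes encode homeodomain transcription factors that give cells of the embryo their position along the body axis. In mammals they lie in 4 clusters, and within a cluster the order of the genes on the chromosome follows the order in which they act from head to tail, so genes with the same number in different clusters are relatives (paralogs). Adult tissues and cell lines often keep a HOX code of their region of origin, in which some clusters are read and others are held silent by Polycomb proteins. Retinoic acid is a classical inducer of the low-numbered genes, and PBX and MEIS proteins bind DNA together with HOX proteins.

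The HepG2 cultures read mostly one cluster. The HOXA cluster (11 rows on chromosome 7 in hg19) held 87.5% of all HOX reads over the 6 cultures. The HOXD cluster (9 rows on chromosome 2, from 176957619 to 177055688) held 9.31%, the HOXC cluster (10 rows on chromosome 12, from 54332535 to 54449814) 2.66%, and the HOXB cluster (10 rows on chromosome 17, from 46605888 to 46806540) 0.561%. These shares pool both groups. In single cultures the HOXA share ran from 77.2% to 91.6% and the HOXD share from 4.53% to 20.6%. All 11 HOXA rows had reads. In contrast, 6 of 10 HOXB rows, 1 of 10 HOXC rows and 2 of 9 HOXD rows had 0 reads in every culture. A further 13 rows had between 1 and 20 reads in all cultures together, which is close to the floor of detection at this depth.

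Per length, the highest HOX levels in vehicle cultures were close together. The mean RPKM (reads scaled by gene length and library size, as deposited) was 3.14 ± 0.14 (SD, n = 3) for HOXA3, 2.94 ± 0.37 for HOXA4, 2.67 ± 0.61 for HOXA5 and 2.46 ± 0.65 for HOXD1. The ranges of neighbours in this order overlapped, while the lowest HOXA3 culture, at 2.99, lay just above the highest HOXD1 culture, at 2.98. HOXA6 followed at 0.774 ± 0.156, below every culture of HOXD1. HOXC9, HOXA2, HOXA7 and HOXB7 came next, between 0.189 and 0.117, again with overlapping neighbours, and HOXA13 at 0.0456 led the remaining HOX genes. The best-read gene of each cluster over all 6 cultures was HOXA5 at 4.47 RPKM, HOXD1 at 1.80, HOXC9 at 0.248 and HOXB7 at 0.115.

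All CPM values use TMM library sizes, and the filter of edgeR (filterByExpr) decided which genes had enough reads for a test. Of the 40 HOX rows, 13 passed it: 9 in HOXA, 2 in HOXC, 1 in HOXB and 1 in HOXD. The other 27 had at most 12 reads in any culture. The test was edgeR's quasi-likelihood test of TGFβ against vehicle on all 22747 genes that passed, and FDR is the Benjamini-Hochberg adjusted P over all of them. HOXC12 passed the read filter only through its TGFβ cultures and is left out of the counts that follow, which cover the other 12 tested HOX genes. Of these, 3 passed at an FDR under 0.05 as higher with TGFβ (HOXA4, HOXA5 and HOXA10), where 3.11% of all tested genes were higher, and 1 was lower (HOXD1), where 1.01% of all tested genes were lower. The vehicle and TGFβ cultures with the same number deviated together, and with the replicate number as a block 6 of the 12 were higher, beside 8.08% of all genes, and 1 was lower, beside 3.75%. HOXA3 and HOXA6 were among those added. Every TGFβ culture lay above every vehicle culture in 7 of the 12 genes (10.4% of all tested genes) and below in 2 (8.23%). The median log2 fold change of the 12 genes was 0.80, against -0.01 over all tested genes.

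**Figure D1:**
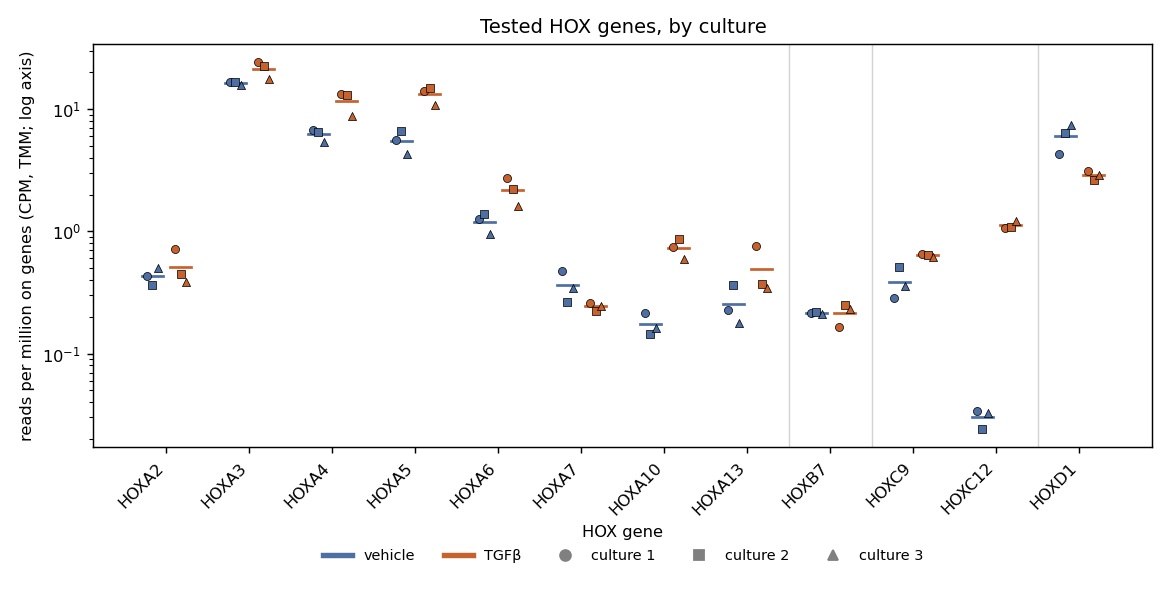
CPM of 12 tested HOX genes in each culture, on a log axis; blue is vehicle, orange is TGFβ, the symbol gives the culture number and the short line is the mean of 3 cultures. The groups do not overlap for HOXA3, HOXA4, HOXA5, HOXA6, HOXA10, HOXC9 and HOXC12 (higher with TGFβ) or for HOXA7 and HOXD1 (lower).

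The HOXA cluster as a whole was read at 30.8 ± 2.50 CPM in vehicle cultures (SD, n = 3) and at 51.3 ± 8.75 CPM with TGFβ. Its sum was 31.8, 32.7 and 28.0 CPM in vehicle cultures 1 to 3, and 57.5, 55.1 and 41.3 CPM in the TGFβ cultures of the same numbers. All TGFβ cultures lay above all vehicle cultures, and TGFβ culture 3 was the lowest of its group. That culture was also the lowest of its group in 7 of the 9 tested HOXA genes. Vehicle and TGFβ cultures 1 shared a sequencing lane, as did cultures 2, while cultures 3 were run on separate lanes according to the labels. The part of the lane in this difference was not tested, and with cultures 1 and 2 alone, a setting chosen after the data were seen, HOXA4, HOXA5 and HOXA10 still passed.

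HOXA5, which is needed for the development of the airways and the upper thoracic skeleton, rose in every fit that was run. Its reads (ENSG00000106004, chromosome 7 from 27180671 to 27183287) were 492, 547 and 265 in vehicle cultures 1 to 3 and 1363, 1191 and 788 with TGFβ, which was 5.57, 6.60 and 4.30 CPM against 14.1, 14.8 and 10.8. The lowest TGFβ culture was well above the highest vehicle culture. This was a rise of 2.40 times, or 1.26 on the log2 scale with a standard error of 0.18 and an FDR of 0.00309. The gene passed the threshold with each culture left out in turn, with an FDR of at most 0.0188, and all 3 same-numbered pairs moved alike, by 1.33, 1.16 and 1.32 on the log2 scale. HOXA4 (ENSG00000197576, from 27168126 to 27170418), its neighbour and a gene of the neck region of the axis, had 594, 538 and 332 reads in vehicle cultures and 1281, 1046 and 638 with TGFβ. In CPM, vehicle cultures stood between 5.39 and 6.73 and TGFβ cultures between 8.75 and 13.2, without overlap. It rose by 0.91 on the log2 scale (standard error 0.17) with an FDR of 0.0152. This call did not hold without vehicle culture 2 (FDR 0.0597), vehicle culture 3 (0.0843), TGFβ culture 1 (0.0522) or TGFβ culture 2 (0.0723), while with the replicate block its FDR was 9.6e-05.

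HOXA10, a gene of the posterior part of the cluster that patterns the uterus and acts in blood progenitors, had the largest fitted change in HOXA. Its reads (ENSG00000253293, from 27210210 to 27219880) were few, at 19, 12 and 10 in vehicle cultures and 72, 70 and 43 with TGFβ. This gave 0.215, 0.145 and 0.162 CPM against 0.743, 0.870 and 0.590, so the lowest TGFβ culture had more than any vehicle culture. The rise was 4.17 times from a low level, or 2.06 on the log2 scale (standard error 0.29) at an FDR of 0.00338, and the gene passed with each culture left out, with an FDR of at most 0.0241. On either side of it the same comparison had too few reads for a test. HOXA9, a blood stem cell gene, had 0, 2 and 0 reads in vehicle cultures and 4, 6 and 1 with TGFβ, and HOXA11, which acts in the uterus, kidney and forearm, had 0, 2 and 2 against 9, 8 and 6. The groups of HOXA11 did not overlap and those of HOXA9 did. Summed over each group and scaled by the library sums, the ratio of TGFβ to vehicle was 5.35 for HOXA11, with an exact 95% interval for counting error alone from 1.83 to 21.3. HOXA13, the last gene of the cluster, which shapes hand, foot and genital tract, had 20, 30 and 11 reads in vehicle cultures and 73, 30 and 25 with TGFβ. Its groups overlapped, and its fitted change of 0.93 on the log2 scale (standard error 0.40) did not pass, with an FDR of 0.330.

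The anterior HOXA genes had smaller fitted changes. HOXA3, a gene of the throat region that is needed for thymus and parathyroid, carried the most reads of any HOX gene, at 1471, 1375 and 973 in vehicle cultures and 2338, 1803 and 1290 with TGFβ. In CPM this was 16.7, 16.6 and 15.8 against 24.1, 22.4 and 17.7, with no overlap but a narrow gap at TGFβ culture 3. Its fitted change was 0.39 on the log2 scale (standard error 0.12) with an FDR of 0.119, and the gene passed with the block (FDR 0.00866) and without TGFβ culture 3 (FDR 0.0164). HOXA6, between HOXA5 and HOXA7, had 0.958 to 1.39 CPM in vehicle cultures and 1.61 to 2.73 with TGFβ, and a fitted change of 0.86 on the log2 scale (standard error 0.24) with an FDR of 0.0914. It too passed with the block (FDR 0.00627) and without TGFβ culture 3 (FDR 0.0278). HOXA2, which shapes the skeleton of the second branchial arch, overlapped between groups, with 38, 30 and 31 against 69, 36 and 28 reads (log2 fold change 0.27, standard error 0.30).

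HOXA7 was the one tested gene of the cluster with a negative fitted value. It had 42, 22 and 21 reads in vehicle cultures and 25, 18 and 18 with TGFβ, which was 0.265 to 0.476 CPM against 0.224 to 0.258. Every TGFβ culture lay just under every vehicle culture, but the log2 fold change of -0.57 (standard error 0.31) did not pass, with an FDR of 0.506 and of 0.300 with the block. The nearest tested HOX genes on either side, HOXA6 and HOXA10, both had positive fitted values. The HOXA7 row shared 2208 bases of its span with HOXA-AS3, an antisense gene that rose by 0.74 on the log2 scale.

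**Figure D2:**
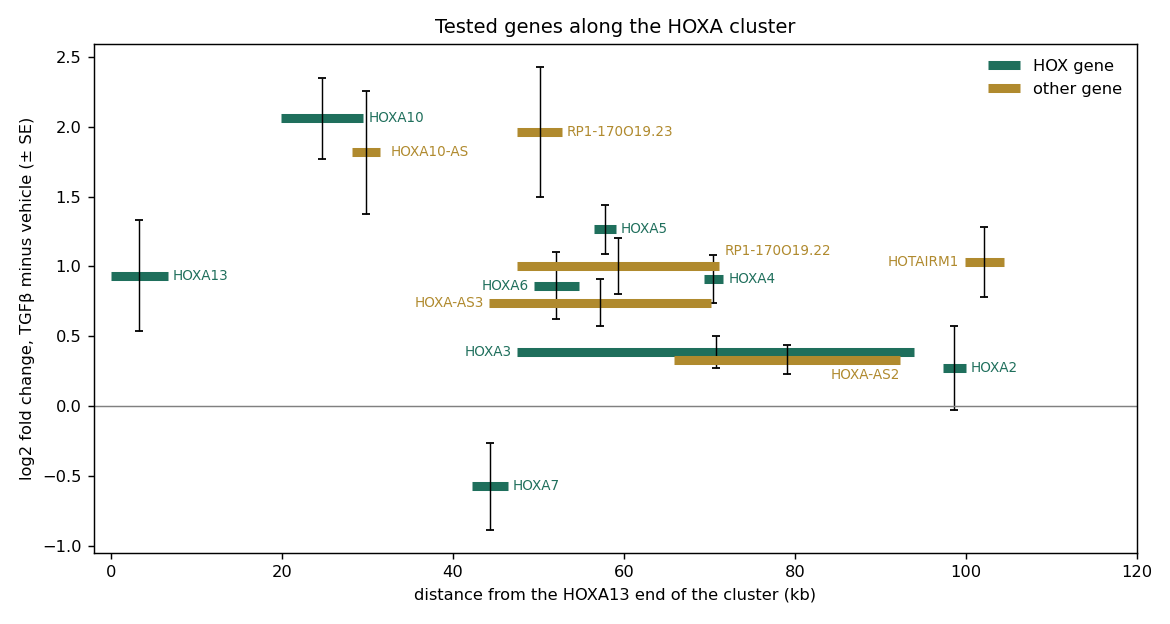
Fitted log2 fold change (TGFβ minus vehicle, bars give ± 1 standard error) of tested genes along the HOXA cluster, against the distance in kb from the end of HOXA13; each horizontal bar spans a gene's row, green for HOX genes and ochre for other genes. HOXA10 and HOXA10-AS lie together near 2, and RP1-170O19.23, which overlaps HOXA6, lies near 2 as well. The other genes around HOXA5 lie near 1, HOXA3 and HOXA-AS2 under 0.5, and HOXA7 alone under 0.

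Antisense and overlapping genes fill much of the cluster. The library kit does not mark strand, and how reads on overlapping genes were counted is not given in the sources used here, so the reads of such partners cannot be told apart. The HOXA3 row spans those of HOXA4, HOXA5 and HOXA6 entirely. In GENCODE v44lift37, which may differ from the annotation of the counts, 47.8% of the HOXA4 exon bases lie in exons of other genes. This share was 0.0% for HOXA5, 40.1% for HOXA6, 62.5% for HOXA7 and 26.3% for HOXA10. A share of 0.0% does not show that reads were unshared. HOXC12 also had 0.0%, yet its counted row holds 2423 of the 2428 bases of AC012531.23. The counted row of HOXA5 overlapped those of HOXA3, RP1-170O19.22 and HOXA-AS3. Of 44 other rows within the 4 clusters, 33 overlapped a HOX gene and 9 were tested. Of the 9, 4 were higher and 0 were lower at an FDR under 0.05, beside 3.11% and 1.01% of all tested genes, and with the block 7 were higher and 1 was lower, beside 8.08% and 3.75%. AC012531.23, the partner of HOXC12, and RP1-170O19.23 are among the higher rows in both counts, and HOXA10-AS in that with the block. All of these passed the read filter only through their TGFβ cultures, so the counts are a description and support nothing beyond themselves. RP1-170O19.23 had 4, 6 and 2 reads in vehicle cultures and 27, 14 and 11 with TGFβ, and AC012531.23 is described with HOXC12. In HOXA, the antisense RNA HOTAIRM1, which overlaps HOXA2, had 118, 121 and 52 reads in vehicle cultures and 253, 240 and 138 with TGFβ (a change of 1.03 on the log2 scale, FDR 0.0529). HOXA10-AS had 7, 5 and 8 against 37, 29 and 13 reads (log2 fold change 1.82, FDR 0.0515). Both stood just above the threshold. HOXA-AS3 had a log2 fold change of 0.74 (FDR 0.0370), RP1-170O19.22 of 1.00 (FDR 0.0194) and RP1-170O19.23 of 1.96 (FDR 0.0473). These 3 calls were lost when most single cultures were left out. With 1 culture left out, HOXA-AS3 passed only without TGFβ culture 3 and otherwise had an FDR of 0.0850 to 0.167. RP1-170O19.22 passed without vehicle culture 1 or TGFβ culture 3 and otherwise had an FDR of 0.0635 to 0.101, and RP1-170O19.23 passed in 0 of 6 such fits (FDR 0.0522 to 0.222). HOXA-AS2, which overlaps HOXA3 and HOXA4, had 0.33 (FDR 0.142). With the block all 6 tested non-HOX rows of the HOXA cluster passed, HOXA-AS2 at an FDR of 0.0130.

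Promoter sequence is shown for the HOX genes that passed the test and have a window in the RefSeq table (build GRCh38.p14, another build than the hg19 of the counts): HOXA4, HOXA10 and, further on, HOXD1. Each line gives the 250 bases before a transcript start, 5′ to 3′ on the strand of the gene. Capitals mark a match to CAGAC or GTCTG, the core element bound by SMAD proteins, the mediators of TGFβ signals, or to TATAAA or TTTATA, the TATA box. HOXA4 lies at chr7:27130758-27131007 on the minus strand, with the SMAD core at position -135. The 2 starts of HOXA10 lie at chr7:27174321-27174570 and chr7:27179862-27180111, also on the minus strand, with the TATA letters at -150 and -222.
HOXA4: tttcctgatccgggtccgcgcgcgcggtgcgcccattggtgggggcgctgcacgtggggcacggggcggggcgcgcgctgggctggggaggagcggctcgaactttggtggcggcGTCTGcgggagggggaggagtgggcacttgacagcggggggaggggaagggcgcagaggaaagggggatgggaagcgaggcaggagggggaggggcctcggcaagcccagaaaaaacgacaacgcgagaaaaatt
HOXA10, first start: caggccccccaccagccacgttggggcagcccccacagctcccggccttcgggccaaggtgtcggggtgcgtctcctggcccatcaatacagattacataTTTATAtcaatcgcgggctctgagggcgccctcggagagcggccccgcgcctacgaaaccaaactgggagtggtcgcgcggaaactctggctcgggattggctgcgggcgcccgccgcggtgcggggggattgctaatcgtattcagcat
HOXA10, second start: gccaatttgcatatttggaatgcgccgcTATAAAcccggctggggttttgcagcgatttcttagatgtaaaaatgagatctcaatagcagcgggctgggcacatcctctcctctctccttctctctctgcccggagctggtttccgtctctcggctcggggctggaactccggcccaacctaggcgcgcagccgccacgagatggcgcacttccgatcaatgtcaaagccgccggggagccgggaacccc
G and C made up 70.0% of the HOXA4 stretch, and 65.2% and 58.8% of those of HOXA10. Of 39 HOX genes, 20 had windows, 27 in all, reaching from 250 bases before to 50 after a start. The SMAD core was found on either strand in 11 of these 27 (40.7%) and in 45.3% of 35116 windows of all genes. The TATA letters were found in 5 (18.5%) against 11.5%, and the AP-1 site TGANTCA in 0 of 27 against 7.71%. These matches describe letters and say nothing of binding.

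The HOXB cluster was nearly silent in both groups. HOXB1, HOXB2, HOXB4, HOXB5, HOXB6 and HOXB9 had 0 reads in every culture, and a count of 0 allows up to 3 reads. HOXB3 and HOXB8 had 1 read each, in vehicle cultures. HOXB7, which acts in thoracic patterning, was the one tested gene, with 19, 18 and 13 reads in vehicle cultures and 16, 20 and 17 with TGFβ. Its CPM ranges overlapped, from 0.211 to 0.217 and from 0.165 to 0.249, and its fitted change was -0.01 on the log2 scale (standard error 0.31) with an FDR of 0.996. At this depth a standard error of 0.31 leaves a change of the size of HOXA3 undetectable. HOXB13, a prostate gene at the far end of the cluster, had 9, 3 and 1 reads in vehicle cultures and 7, 4 and 1 with TGFβ. The 15 other rows of the cluster held 0 tested genes.

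HOXC12, a posterior gene of the HOXC cluster, had the largest fitted difference of the 13 tested HOX genes, and it is described without a test. Its reads (ENSG00000123407, chromosome 12 from 54348618 to 54352740) were 3, 2 and 2 in vehicle cultures and 104, 87 and 89 with TGFβ. This was 0.0340, 0.0241 and 0.0325 CPM against 1.07, 1.08 and 1.22. The TGFβ cultures lay close together, with an SD of 0.0831 on a mean of 1.13 CPM. The summed reads, 280 against 7, gave a ratio of 37.2 after scaling by the library sums, with an exact 95% interval for counting error from 17.8 to 93.4. The fitted log2 fold change was 5.15 (standard error 0.32). Even with TGFβ the gene stayed at a low level per length, at 0.271 RPKM, under HOXC9 at 0.306 and far under HOXA5 at 6.26.

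The HOXC12 reads cannot be assigned to that gene alone. AC012531.23 (ENSG00000271090, from 54350318 to 54352745) has a row whose length equals its span of 2428 bases, and 2423 of these lie within HOXC12. It had 2, 2 and 2 reads in vehicle cultures and 95, 83 and 81 with TGFβ, nearly as many as HOXC12 in each culture. Its fitted log2 fold change was 5.25 (standard error 0.33). With both rows summed the value was 5.23. HOXC4, at the opposite end of the cluster, has 2 overlapping rows with equal counts, 2, 0 and 0 in vehicle cultures and 0, 0 and 2 with TGFβ; whether these are the same reads is not given by the counts.

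The neighbours of HOXC12 had few reads. HOXC13, the hair and nail gene on the outer side, had 0, 2 and 2 reads in vehicle cultures and 12, 9 and 0 with TGFβ. HOXC11, on the inner side and a gene of the hindlimb region, had 1, 0 and 0 against 0, 1 and 5. The groups overlapped in both genes. The summed ratio of TGFβ to vehicle was 4.88 for HOXC13 and 5.58 for HOXC11, with exact 95% intervals for counting error from 1.65 to 19.6 and from 0.677 to 257, so the reads do not settle how far these genes moved. HOXC10, a lumbar gene, had 0 reads throughout. HOXC9, which specifies thoracic motor neurons, was the other tested gene, with 25, 42 and 22 reads in vehicle cultures and 63, 52 and 45 with TGFβ. Its groups did not overlap (0.283 to 0.507 CPM against 0.617 to 0.650), but its log2 fold change of 0.74 (standard error 0.27) had an FDR of 0.235, and of 0.0917 with the block. HOXC8, a thoracic gene, had 1, 3 and 5 reads against 4, 8 and 0. HOXC6, also of the thoracic region, had 0, 4 and 4 against 2, 0 and 0, and HOXC5, of the neck region, had 2, 2 and 0 against 0, 4 and 2. For these low-read genes a difference was not detectable at this depth.

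HOXD1, the most anterior gene of the HOXD cluster, was the one tested HOX gene called lower at an FDR under 0.05. Its reads (ENSG00000128645, chromosome 2 from 177053307 to 177055688) were 382, 528 and 457 in vehicle cultures and 304, 211 and 209 with TGFβ. In CPM this was 4.33, 6.37 and 7.42 against 3.14, 2.62 and 2.87. Every TGFβ culture lay below every vehicle culture, and the vehicle cultures were the more scattered group. The level was 2.09 times lower with TGFβ, a change of -1.07 on the log2 scale with a standard error of 0.20 and an FDR of 0.0155. The call did not hold without vehicle culture 2 (FDR 0.0670), vehicle culture 3 (0.0779) or TGFβ culture 2 (0.0677), and with the block the FDR was 0.00334. Pair 1 differed less, by -0.46 on the log2 scale, than pairs 2 and 3, by -1.27 and -1.36. With cultures 1 and 2 alone, which shared their lanes, the log2 fold change was -0.89 (FDR 0.142).

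The row of HOXD1 shares 380 bases of its span with HOXD-AS1, an antisense RNA read far more. In GENCODE v44lift37, which may differ from the annotation of the counts, 60.1% of the HOXD1 exon bases lie in exons of other genes. HOXD-AS1 had 4860, 5393 and 3329 reads in vehicle cultures and 4701, 3881 and 3077 with TGFβ, which was 55.1, 65.1 and 54.1 CPM against 48.5, 48.2 and 42.2. All TGFβ cultures were again below all vehicle cultures. The fitted change was -0.33 on the log2 scale (standard error 0.09), with an FDR of 0.108 and of 0.00407 with the block, beside -1.07 for HOXD1. The part of HOXD-AS1 reads in the HOXD1 value was not tested. The promoter window of HOXD1 (chr2:176188418-176188667 in GRCh38.p14, plus strand) is printed beside those of the genes that rose; it holds 0 of the searched letters and 74.8% G and C.
HOXD1: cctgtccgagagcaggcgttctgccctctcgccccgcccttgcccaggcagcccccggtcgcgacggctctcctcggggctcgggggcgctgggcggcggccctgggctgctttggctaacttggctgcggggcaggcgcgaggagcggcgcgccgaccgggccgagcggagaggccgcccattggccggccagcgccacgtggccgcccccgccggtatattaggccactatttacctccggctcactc
The other HOXD genes stayed near the floor. HOXD3, a gene of the neck region, had 4, 9 and 2 reads in vehicle cultures and 9, 6 and 11 with TGFβ, and HOXD4 had 0, 0 and 0 against 3, 0 and 5. HOXD11, of forearm and kidney, had 3, 1 and 0 against 1, 2 and 5. HOXD9, HOXD10 and HOXD13, the digit gene, had at most 2 reads over all cultures, and HOXD8 and HOXD12 had 0.

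**Figure D3:**
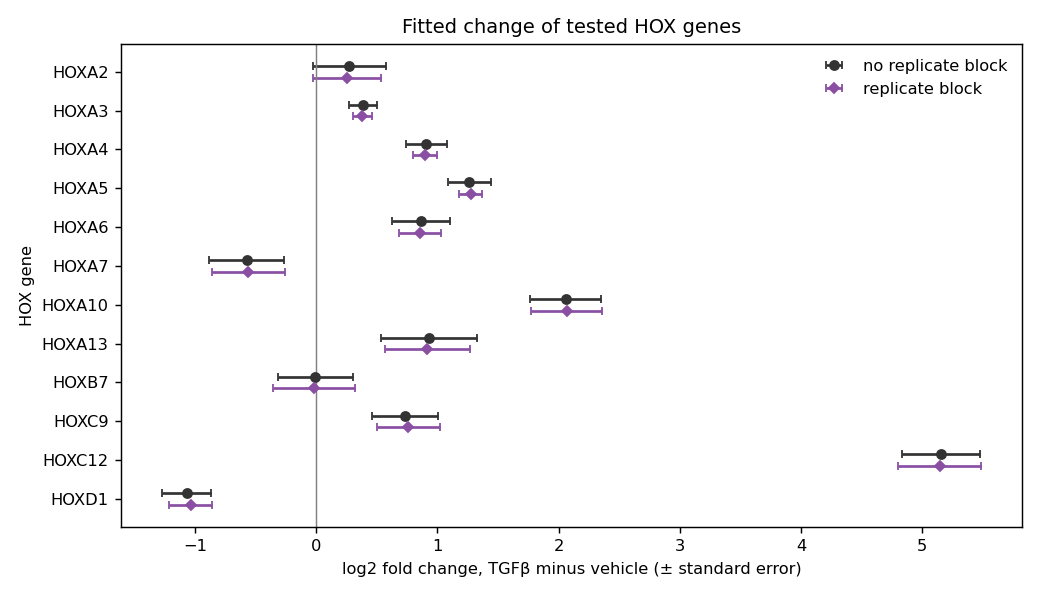
Fitted log2 fold change (TGFβ minus vehicle) of 12 tested HOX genes with ± 1 standard error, without (black circles) and with (purple diamonds) the replicate number as a block. The block left the estimates in place and narrowed the bars of HOXA3, HOXA4 and HOXA5; HOXC12 stands apart at 5.15 and HOXD1 lies at -1.07.

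Genes that work with or upstream of HOX genes were followed as lists, which were written from general knowledge. Over all 22747 tested genes, 3.11% were higher and 1.01% lower at an FDR under 0.05. With the block these shares were 8.08% and 3.75%. An unadjusted P under 0.05 in the quasi-likelihood test was reached by 3107 of the 22747 genes. Of the HOX cofactors, the PBX, MEIS and PKNOX genes, 7 of 9 were tested and 0 passed in either direction in the quasi-likelihood test, with 1 at an unadjusted P under 0.05. The largest fitted values were 0.32 for PBX3 (FDR 0.212) and -0.28 for MEIS1 (FDR 0.424), and with the block 1 was higher and 1 was lower. The 8 ParaHox and cluster-edge homeobox genes, such as CDX2 and EVX1, had at most 6 reads in any culture. Of 35 tested rows (34 genes) of Polycomb and trithorax regulators, the keepers of silent and active HOX states, 0 passed, with 4 at an unadjusted P under 0.05. Their largest fitted values were 0.42 for KDM6B (FDR 0.106), a demethylase that removes the Polycomb mark, and -0.34 for CBX8 (FDR 0.0993), a reader of that mark, and with the block 2 were higher and 2 lower. Of the 13 tested retinoid receptors and enzymes, 2 were higher and 0 lower, and with the block 4 were higher, RXRA (0.41, block FDR 0.000245) and CYP26B1 (1.13, block FDR 0.0252) being added. The 2 were RARA, the retinoic acid receptor alpha, at 23.8 ± 0.88 CPM in vehicle cultures and 42.9 ± 2.68 with TGFβ (log2 fold change 0.85, FDR 0.000311), and DHRS3, which turns retinaldehyde back into retinol (log2 fold change 0.41, FDR 0.0342). RARA passed with each culture left out, while DHRS3 then passed only without TGFβ culture 3 and otherwise had an FDR of 0.0721 to 0.154. Of the 10 genes of CTCF and cohesin, which fold the clusters, WAPAL, the factor that releases cohesin, was higher (log2 fold change 0.39, FDR 0.00922, and 0.0515 without TGFβ culture 2) and 0 were lower. The median log2 fold changes of these lists were -0.14 for cofactors, 0.01 for Polycomb and trithorax, 0.24 for retinoid genes and 0.13 for CTCF and cohesin, beside -0.01 over all tested genes.

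Of 10 markers of fibroblasts, cells known for rich HOX expression, only COL1A1 and PDGFRB had enough reads for a test in these HepG2 cultures. The 10 markers followed summed to between 13.7 and 15.1 CPM in vehicle cultures and between 23.4 and 34.8 CPM with TGFβ. Nearly all of it came from COL1A1 and PDGFRB, the 2 tested markers, with log2 fold changes of 0.57 (FDR 0.193) and 1.22 (FDR 0.0582). Neither passed the test, and both passed with the block, where 8.08% of all tested genes were higher. The defining markers COL1A2, COL3A1, PDGFRA, THY1, LUM, DCN, TWIST1 and PRRX1 had at most 22 reads over a group of 3 cultures, THY1 and LUM had 0 with TGFβ, and TWIST1 and PRRX1 had 0 in vehicle cultures. The part of the 10 markers in the HOX values was not tested, and in bulk RNA more cells of a type and more RNA per cell cannot be told apart.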

How the data were processed

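RNA of 6 HepG2 cultures (3 with TGFβ, 3 with vehicle, grouped and numbered by the sample labels) was sequenced by the authors as paired reads of 51 bases from TruSeq v2 libraries. They aligned the reads to hg19 (TopHat2 2.0.6 and HTSeq are named in the submitters' processing notes) and counted them with MAPRseq. The deposited table gives the raw count per gene and, beside it, the RPKM by the authors. The annotation release, the strand setting and the rule for overlapping genes are, in the sources used here, not given. The paper calls the replicates biological. Counts of cultures within a group were further apart than counting error allows (chi-square per gene 21.4 to 46.3), and each culture was used as 1 sample.

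Here the counts went into edgeR 4.0.16, run in R 4.3.3 beside limma 3.58.1: TMM, filterByExpr and, on 22747 genes, the quasi-likelihood F test (robust, no block); CPM values use the TMM library sizes. RPKM served only to compare levels between genes. Intervals are exact Poisson ratios for counting error. Exact permutation of 3 against 3 cultures cannot give a P under 0.1. Within-group deviations of vehicle and TGFβ cultures with the same number correlated across genes at 0.366, 0.227 and 0.316, and those of other pairs at most 0.0101, so the numbers were taken as pairs. HOX genes given in full were HOXC12 and its cluster, the best-read gene of each cluster, every gene at an FDR under 0.05 and the 3 highest and 3 lowest changes. Members and lists were chosen with earlier results of these data known. Some results that were examined are not reported here; counts over the HOX genes include them. In GENCODE v44lift37 (GRCh37), 39 of 40 HOX identifiers were found, each overlapping its table position. The steps were tested on simulated data. Alternatives were other scalings and filters, DESeq2 1.42.0, limma-voom, edgeR's exact test, the block, leaving out each culture and, chosen after the data were seen, the cultures on shared lanes.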

Additional observations from a re-analysis of the deposited data

How the results depend on the processing

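With the replicate block, the paired analysis, the genes called over all tested genes went from 937 to 2690 and the HOX genes higher, HOXC12 counted here, from 4 to 7; of other fits, DESeq2's test called 1420 genes. Leaving out single cultures gave 485 to 998 genes, 3 to 6 HOX genes higher, 0 to 1 lower, and a HOXC12 log2 fold change of 5.01 to 5.25. The low counts of all genes came without vehicle culture 3 (485), vehicle culture 2 (518) and TGFβ culture 2 (561), and without any of these HOXD1 was not called. The cultures on shared lanes, chosen after the data were seen, gave 399 genes, 4 HOX genes higher and 0 lower. limma-voom gave HOXC12 a log2 fold change of 4.95. With at least 10 counts in every library HOXC12 was not tested, and without a filter 31 HOX genes were. HOXA6 was also called without a filter (FDR 0.0303), by DESeq2 (0.0153) and by edgeR's exact test (0.0238), and HOXA3 by DESeq2 (0.0435). Scaling by DESeq2's size factors or by total counts changed no HOX call, and HOXA5 and HOXA10 were called in all settings run. Depth limits the 27 rows with at most 12 reads in a culture.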
